A study of Mus musculus with 11 samples.

Results

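Ribosome footprints of 8 genes that build the antigen-presenting molecules of the major histocompatibility complex (MHC) were examined in mouse liver. The 8 genes were taken by their Ensembl identifiers, out of 22019 genes in the count table. They are the class I heavy chains H2-K1 (ENSMUSG00000061232), H2-D1 (ENSMUSG00000073411) and H2-T22 (ENSMUSG00000056116), and the class I light chain B2m (ENSMUSG00000060802). The class II chains are H2-Aa (ENSMUSG00000036594), H2-Ab1 (ENSMUSG00000073421) and H2-Eb1 (ENSMUSG00000060586), and Cd74 (ENSMUSG00000024610) is the invariant chain that accompanies them.

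The livers came from male wild-type mice given either chow or the diet labelled HFHS (high in fat and sugar). The labels give no further treatment, and they state neither strain nor age nor how long the diet was fed. Tissue was digested with RNase I, and protected mRNA fragments of 30 nt (monosomes, from single ribosomes) or 60 nt (disomes, from a pair of ribosomes pressed together) were cut from a gel and sequenced in separately named pools. The files held 3 chow and 3 HFHS monosome libraries and 3 chow and 2 HFHS disome libraries, each named here by its sample barcode. Total counts lay between 795145 and 1612324 for monosomes and between 147212 and 279331 for disomes, and the AGCTA libraries were the shallowest of both classes. The 8 genes together took 0.506 to 0.620% of the counts in monosome libraries and 0.397 to 0.518% in disome libraries. The table pairs no other identifier with a gene name, so markers of hepatocytes and of immune cells were not analysed here and the tissue label was not checked against them.

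MHC class I molecules consist of a heavy chain and beta-2 microglobulin, the product of B2m, and show peptides from inside the cell to CD8 T cells. Nearly all nucleated cells make them, hepatocytes included. Class II molecules are pairs of an alpha and a beta chain that show peptides from ingested material to CD4 T cells. In liver they are known mainly from Kupffer cells, dendritic cells and B cells, and the Cd74 chain guides them through the cell. All of these chains are made on ribosomes at the endoplasmic reticulum. A footprint count follows both the amount of an mRNA and the ribosomes on it, and mRNA was not measured in the libraries used here. In a bulk tissue, moreover, fewer cells of a type and less RNA per cell cannot be told apart.

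Promoters of class I, B2m and class II genes are known to share a module whose X2 box resembles a cAMP response element and whose Y box is bound by NF-Y. The 150 bases before the annotated start are printed for 4 of the genes, because in these the core letters of both boxes stand in the same order and at similar distances. Sequences are from RefSeq (build GRCm38.p6), read 5′ to 3′ on the gene's strand, and capitals mark the core letters. H2-K1 lies at chr17:34000348-34000497 on the minus strand, H2-D1 at chr17:35262944-35263093 on the plus strand, B2m at chr2:122147537-122147686 on the plus strand and H2-Aa at chr17:34287824-34287973 on the minus strand.
H2-K1: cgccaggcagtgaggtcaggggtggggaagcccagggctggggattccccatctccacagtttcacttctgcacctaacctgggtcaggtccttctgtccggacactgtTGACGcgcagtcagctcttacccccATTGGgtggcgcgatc
H2-D1: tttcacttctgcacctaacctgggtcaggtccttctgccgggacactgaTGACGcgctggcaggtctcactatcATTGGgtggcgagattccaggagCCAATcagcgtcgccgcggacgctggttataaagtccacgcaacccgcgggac
B2m: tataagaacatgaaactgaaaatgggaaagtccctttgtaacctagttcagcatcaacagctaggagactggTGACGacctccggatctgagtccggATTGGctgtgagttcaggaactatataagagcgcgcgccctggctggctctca
H2-Aa: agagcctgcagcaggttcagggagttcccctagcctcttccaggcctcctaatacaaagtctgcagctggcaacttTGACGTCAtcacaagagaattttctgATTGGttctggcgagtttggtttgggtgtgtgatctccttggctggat
The X2 core was searched as TGACG on the gene's strand and as its reverse complement CGTCA. For the Y box the letters were CCAAT, or ATTGG when read in reverse complement. In H2-Aa both orientations of the X2 core overlap within the same stretch of capitals. From the end of TGACG to the next Y core there were 20 bases in H2-K1, H2-D1 and B2m and 21 bases in H2-Aa, or 18 bases there from the overlapping reverse match. Over the full window of 250 bases before and 50 bases after the start, the Y core stood in 6 of the 6 promoters used, among them H2-T22 and H2-Eb1, and in 37.4% of all 32851 promoters of that length. The X2 core stood in 5 of 6, all but H2-Eb1, and in 20.8% of all promoters, and both cores stood together in 5 of 6 and in 7.73% of all. In H2-T22 the X2 core lay downstream of all 3 Y cores. The windows of H2-K1 and H2-D1 were identical at 206 of 228 aligned positions (90.4%). H2-K1 had 2 promoter entries, of which the first was used. From that start its TGACG began at base -41, against -101 in H2-D1. A match is a run of letters and no measured binding site, and footprints carry no reading of promoter activity. Only exact letters were searched, so a missing match does not show that a box is absent.

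**Figure D1:**
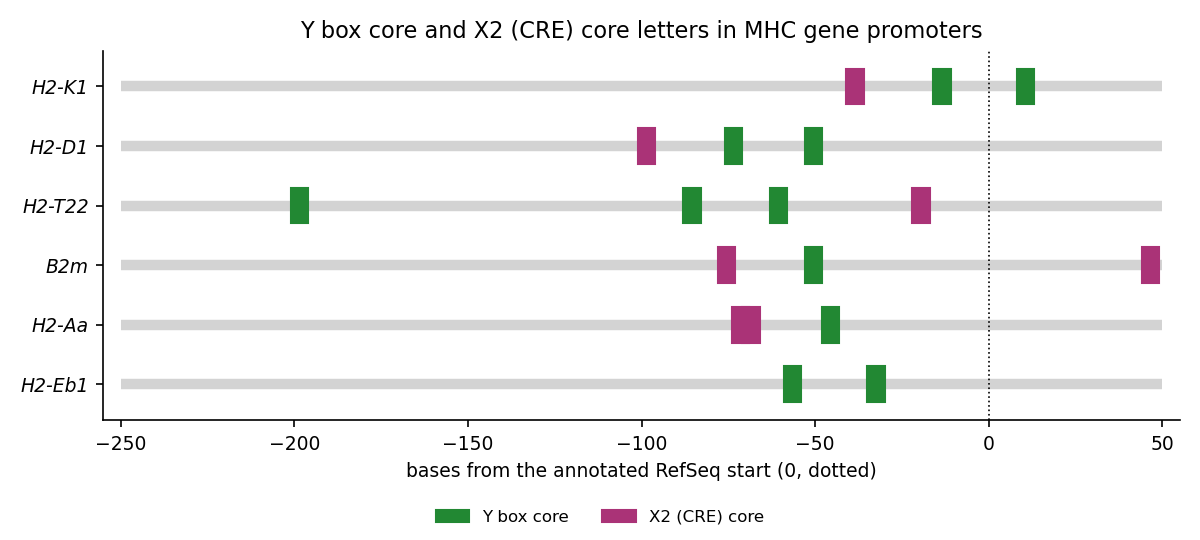
Positions of the Y box core (green) and the X2 core (purple) in 6 promoters, in bases from the annotated RefSeq start (dotted line); grey bars span the 250 bases before to 50 bases after it. In H2-K1, H2-D1, B2m and H2-Aa an X2 core is followed downstream by a Y core, 20 or 21 bases after the end of its forward letters. H2-Eb1 has no exact match to the X2 core letters, and variant letters were not searched.

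Levels are given in CPM, edgeR's depth-scaled counts, scaled by the trimmed mean of M values (TMM) over all 11 libraries. They depend on each gene's length, which was not used here, so levels are compared between libraries and never between genes. H2-K1 encodes a classical class I heavy chain. Its monosome level was 1734 CPM in the ATCGT library, 1819.7 in AGCTA and 2125 in CGTAA on chow, and 1974 in CTAGA, 2330.1 in GATCA and 1973 in GCATA on HFHS. Its disome level was 1139 CPM in ATCGT, 1116 in AGCTA and 1333 in CGTAA on chow, and 1532 in CTAGA and 1415 in GCATA on HFHS. Every disome library was below every monosome library, while the diets overlapped in monosomes and the HFHS disome libraries stood above the chow ones on this scale. From high to low the order was HFHS monosomes (2092 ± 206 CPM, SD, n = 3), chow monosomes (1893 ± 206, n = 3), HFHS disomes (1473 ± 83.4, n = 2) and chow disomes (1196 ± 119, n = 3). The monosome groups, neighbours in that order, did not differ beyond their spread, and the other neighbours did not overlap.

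H2-D1, the other classical heavy chain among the 8 genes, had the same order of groups. Its monosome level was 568 CPM in ATCGT, 582 in AGCTA and 724 in CGTAA on chow, and 653 in CTAGA, 726 in GATCA and 649.6 in GCATA on HFHS. In disomes it was 192 CPM in ATCGT, 173 in AGCTA and 220.0 in CGTAA on chow, and 283 in CTAGA and 301 in GCATA on HFHS. Group means were 676 ± 43.4 CPM (n = 3) and 625 ± 86.2 (n = 3) for HFHS and chow monosomes and 292 ± 12.6 (n = 2) and 195 ± 23.6 (n = 3) for HFHS and chow disomes. Again the monosome groups overlapped, and the disome groups overlapped neither with them nor with each other.

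H2-T22 encodes a nonclassical class I heavy chain known as a ligand of gamma-delta T cells. It was thinly covered. Its monosome level was 24.6 CPM in ATCGT, 27.0 in AGCTA and 35.4 in CGTAA on chow (20 to 35 counts each) and 27.7 in CTAGA, 28.9 in GATCA and 30.6 in GCATA on HFHS (32 to 46 counts each). It had 0 counts in all 3 chow disome libraries, which allows up to 4.19 CPM (3 counts over the group), and 2 counts in each HFHS disome library, or 8.22 and 8.37 CPM. The monosome groups had means of 29.0 ± 5.70 and 29.1 ± 1.48 CPM (n = 3 each) and did not differ beyond their spread.

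B2m encodes the light chain that every classical class I molecule needs. Its monosome level was 2636 CPM in ATCGT, 2810.4 in AGCTA and 2929 in CGTAA on chow, and 2854 in CTAGA, 2940.2 in GATCA and 2506 in GCATA on HFHS. In disomes it was 2517 CPM in ATCGT, 2213 in AGCTA and 2731 in CGTAA on chow, and 2354 in CTAGA and 2084 in GCATA on HFHS. From high to low the means were 2792 ± 147 (chow monosomes), 2767 ± 230 (HFHS monosomes), 2487 ± 260 (chow disomes) and 2219 ± 191 CPM (HFHS disomes, n = 2). Each neighbour in that order overlapped with the next, and the chow disome libraries reached into the range of the monosomes.

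The class II chains had lower counts and a wider spread. H2-Ab1, the beta chain of the I-A molecule, was at 77.2 CPM in ATCGT, 98.4 in AGCTA and 154 in CGTAA in chow monosomes and at 92.2 in CTAGA, 76.7 in GATCA and 115 in GCATA in HFHS monosomes. In disomes its level was 40.0 CPM in ATCGT, 57.7 in AGCTA and 84.1 in CGTAA on chow, and 24.6 in CTAGA and 41.8 in GCATA on HFHS, from 6 to 26 counts per library. From high to low the means were chow monosomes (109.8 ± 39.6), HFHS monosomes (94.7 ± 19.3), chow disomes (60.6 ± 22.2) and HFHS disomes (33.2 ± 12.2 CPM, n = 2), and each group overlapped with its neighbour. H2-Aa, the alpha partner of H2-Ab1, ranged between 44.5 and 91.1 CPM in monosomes on chow and between 60.7 and 65.9 on HFHS. Its disome level ranged from 28.0 to 48.5 CPM on chow and was 28.8 and 25.1 CPM on HFHS, where 7 and 6 counts were read. Monosome means of H2-Aa were 63.3 ± 2.58 CPM on HFHS and 62.7 ± 24.9 on chow, and disome means were 38.3 ± 10.3 on chow and 26.9 ± 2.58 on HFHS. Each group overlapped with its neighbour in that order.

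H2-Eb1, the beta chain of the I-E molecule, ranged between 36.4 and 68.9 CPM in monosomes on chow and between 37.0 and 71.9 on HFHS. In chow disomes it ranged from 25.7 to 67.9 CPM, almost the monosome range, and on HFHS it was 24.6 and 29.3 CPM, from 6 and 7 counts. Its means were 52.7 ± 17.7 CPM (HFHS monosomes), 50.9 ± 16.5 (chow monosomes), 45.8 ± 21.2 (chow disomes) and 27.0 ± 3.28 (HFHS disomes), and neighbours in that order overlapped. Cd74 was at 220.5 CPM in ATCGT, 257 in AGCTA and 305 in CGTAA in chow monosomes and at 232 in CTAGA, 253 in GATCA and 272 in GCATA in HFHS monosomes. Its disome level was 124 CPM in ATCGT, 128 in AGCTA and 197 in CGTAA on chow, and 140 in CTAGA and 172 in GCATA on HFHS. Its means were 261 ± 42.3 CPM in chow and 252 ± 20.1 in HFHS monosomes and 156 ± 22.6 in HFHS and 149.8 ± 41.2 in chow disomes. For Cd74 every disome library was below every monosome library, and within each footprint class the diets overlapped.

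**Figure D2:**
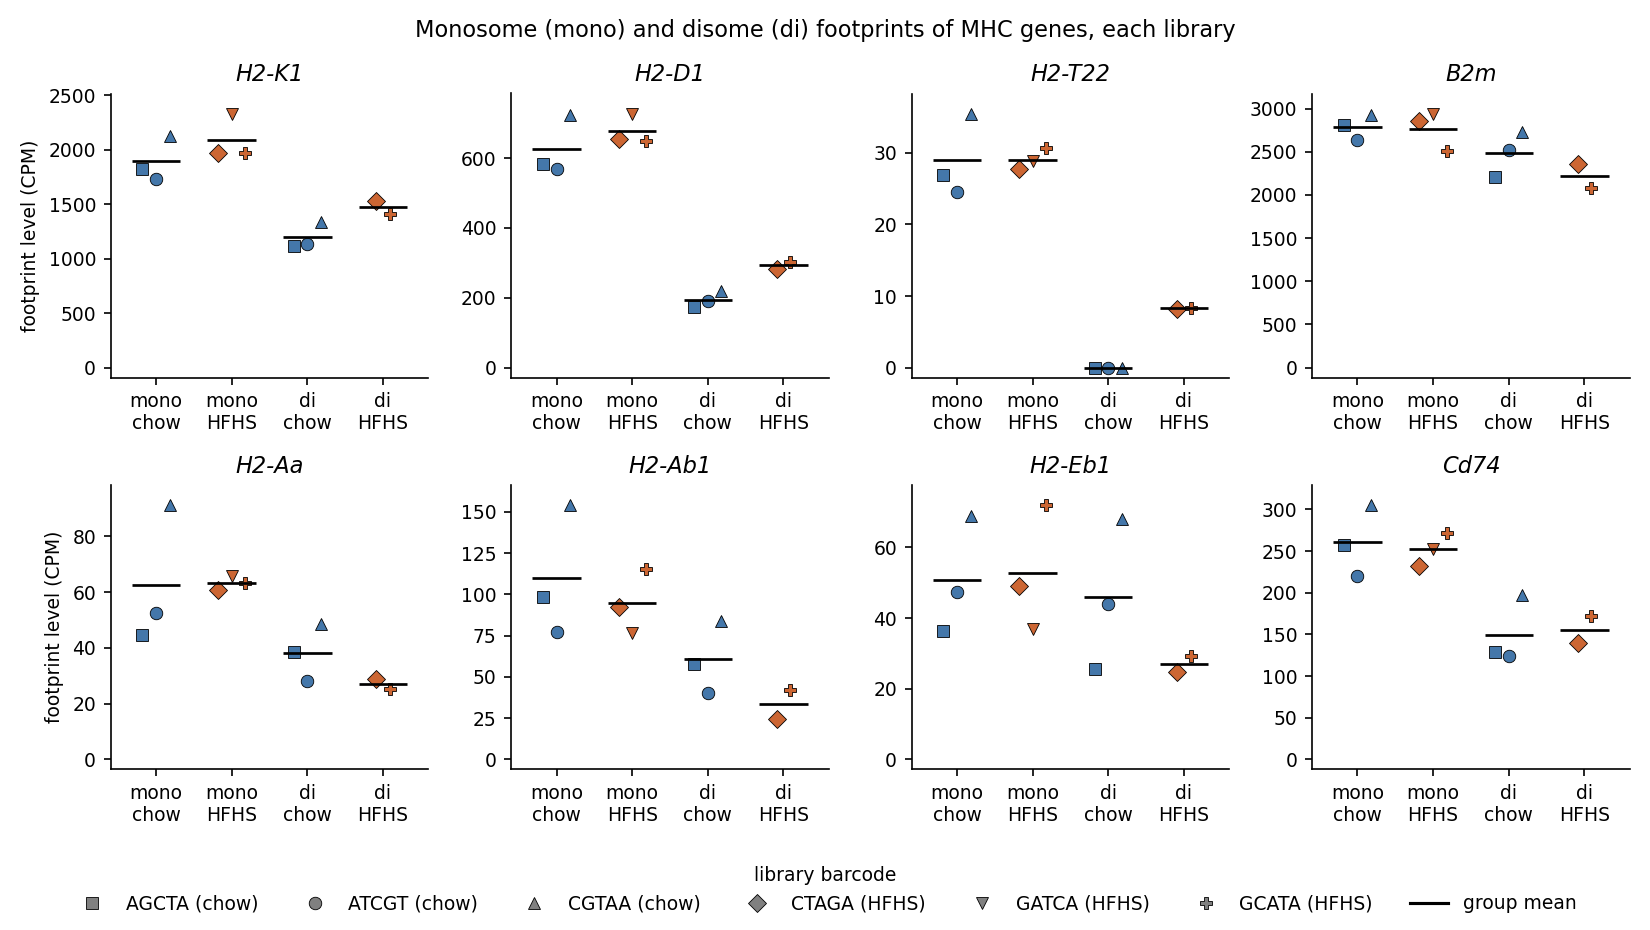
Footprint level (CPM, TMM scaling over 11 libraries, linear axes from 0) of each gene in every library; symbols mark the sample barcode, blue is chow, orange is HFHS, and bars are group means of 3 libraries, or 2 for HFHS disomes. The disome groups of H2-K1, H2-D1, H2-T22 and Cd74 lie wholly below their monosome groups, and the CGTAA library (triangle) is the highest of its group for all 8 genes in chow monosomes. The share of all genes highest in that library was not computed.

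Within chow, 1 library was high for all of these genes together. The share of all genes that were highest in that library was not computed, so whether this is particular to these genes was not tested. The CGTAA monosome library was the highest of 3 for 4 of 4 class I genes including B2m and for 4 of 4 class II genes including Cd74. Among disomes the CGTAA library was the highest for the 3 class I genes with any count and for all 4 class II genes. Class II chains summed to 314 CPM in its monosomes against 177 in ATCGT and 179 in AGCTA, and to 201 CPM in its disomes against 112 in ATCGT and 122 in AGCTA. Summed class I heavy chains were 2885 CPM there, against 2327 in ATCGT and 2429 in AGCTA. On HFHS the GCATA library was the highest for 3 of 4 class II genes in both footprint classes, out of 3 monosome and 2 disome libraries. Of the class I genes it was the highest for 1 of 4 in monosomes and for 2 of 4 in disomes. Thus CGTAA was high in both footprint classes on chow. GCATA was so for 3 of 4 class II genes, and the HFHS barcodes are not taken as paired. The part of cell composition in this spread was not tested, since no cell type marker could be named.

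Genes whose monosome level followed a member most closely over the 6 monosome libraries were sought among 6146 genes with a mean of at least 10 CPM, by Pearson's r of log2(CPM + 1). For H2-K1 the closest were ENSMUSG00000021928 (r = 0.992) and ENSMUSG00000028247 (r = 0.986), and 39 genes had r above 0.9. For Cd74 they were ENSMUSG00000031820 (r = 0.980) and ENSMUSG00000056076 (r = 0.976), and 28 genes had r above 0.9. These are the highest of 6146 values of r, each over only 6 libraries that share pool and normalization. How many unrelated genes would reach such values was not computed, so no shared regulation is read from them.

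The first comparison asked whether the HFHS diet changed the footprints of these genes on single ribosomes. None of the 8 passed in monosomes, in either direction. By edgeR's quasi-likelihood test with Benjamini-Hochberg adjustment over all genes, 0 of 8 had an adjusted p below 0.05, where 4.65% of the 6754 genes tested were called, so that 0 of 8 is near the background. At an unadjusted p below 0.05 the count was also 0 of 8, beside 16.9% of all genes tested, and DESeq2 called 0 of 8. The log2 fold change of HFHS over chow was 0.16 ± 0.11 (SE; 95% interval -0.07 to 0.39) for H2-K1 and 0.13 ± 0.13 (-0.14 to 0.40) for H2-D1. For B2m it was 0.00 ± 0.10 (-0.21 to 0.21). Intervals of this width leave room for changes of either sign.

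The class II genes had wider intervals in monosomes. H2-Ab1 differed by -0.18 ± 0.22 (-0.65 to 0.28, adjusted p = 0.759 in edgeR), H2-Aa by 0.01 ± 0.21 (-0.41 to 0.44) and H2-Eb1 by 0.07 ± 0.24 (-0.44 to 0.58). Cd74 differed by -0.03 ± 0.15 (-0.33 to 0.27) and H2-T22 by 0.02 ± 0.23 (-0.44 to 0.49). The median over the 8 genes was 0.02, beside -0.02 over all genes tested, and the libraries of both diets overlapped for every one of the 8 genes, whereas 21.6% of all genes tested showed no overlap. The sign of the values for H2-T22, B2m and H2-Aa turned when library totals replaced TMM.

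Disomes were compared between the diets in the same way, over 3 chow and 2 HFHS libraries. In the scaling of this fit, H2-D1 and B2m were the members whose libraries did not overlap between diets, H2-D1 being higher and B2m lower on HFHS, and neither passed the test. Such a lack of overlap was seen for 28.2% of all genes tested, so that 2 of 6 is near the background. On the scale of all 11 libraries above, H2-K1 and H2-D1 were the ones without overlap among these 6, so for H2-K1 and B2m overlap depends on the scaling. Of the 6 genes with enough counts, 0 were called by edgeR, beside 2.96% of the 2804 genes tested. At an unadjusted p below 0.05 the count was 2 of 6, beside 13.4% of all genes tested, and DESeq2 called 0. H2-T22 and H2-Aa stayed below the count filter. H2-D1 was 0.49 ± 0.21 higher on the log2 scale (95% interval 0.07 to 0.91, unadjusted p = 0.0213, adjusted p = 0.253 in edgeR), and B2m was at -0.24 ± 0.17 (-0.57 to 0.09, adjusted p = 0.595). H2-Ab1 was at -0.97 ± 0.43 (-1.82 to -0.12, unadjusted p = 0.0247, adjusted p = 0.268) and its libraries overlapped.

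H2-Eb1 was at -0.93 ± 0.50 (-1.92 to 0.05, adjusted p = 0.412 in edgeR), H2-K1 at 0.22 ± 0.17 (-0.11 to 0.56, adjusted p = 0.640) and Cd74 at -0.06 ± 0.26 (-0.57 to 0.46, adjusted p = 0.973). The median over these 6 genes was -0.15, and over all genes tested it was -0.03. Disome libraries held far fewer counts than monosome libraries, and the intervals of H2-Ab1 and H2-Eb1 were the widest of the 6.

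**Figure D3:**
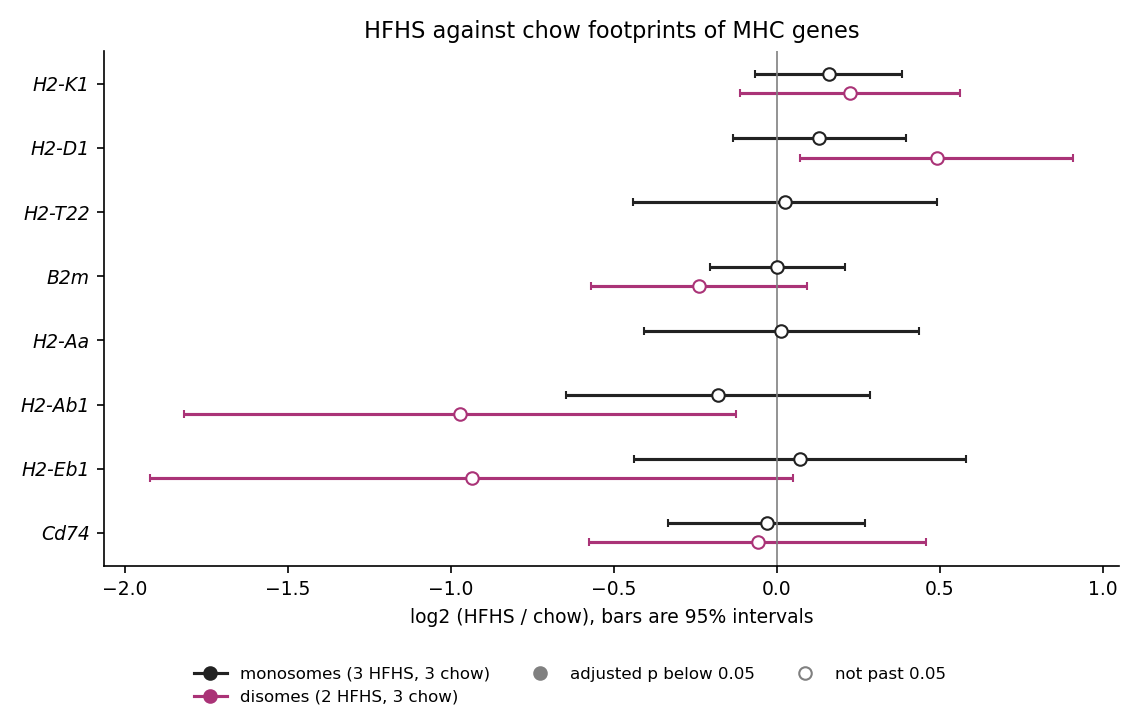
Log2 fold change of HFHS over chow for each gene with its 95% interval, in monosomes (black, 3 against 3 libraries) and disomes (purple, 2 against 3); open circles did not reach an adjusted p of 0.05. Every circle is open; H2-T22 and H2-Aa have no disome value, and the disome intervals of H2-D1 and H2-Ab1 leave out 0 before adjustment.

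Whether the diet effect differed between disomes and monosomes was tested with an interaction term over all 11 libraries. No gene of the 7236 tested was called by edgeR (0%), and so 0 of 8 members were; DESeq2 also called 0 members. At an unadjusted p below 0.05 the count was 1 of 8, beside 4.95% of all genes tested. That gene was H2-T22 (unadjusted p = 0.00806, adjusted p = 0.968), which rests on 4 disome counts on HFHS against 0 on chow, so that its fitted size is no measured size. The difference of log2 changes, disomes minus monosomes, was 0.46 ± 0.25 (95% interval -0.03 to 0.95) for H2-D1 and 0.16 ± 0.19 for H2-K1. For H2-Eb1 it was -0.93 ± 0.54 (-2.02 to 0.16), for H2-Ab1 -0.69 ± 0.48 (-1.66 to 0.27), and for B2m -0.15 ± 0.18. With the barcode as a replicate block 7 genes were called for this difference, none of them among the 8.

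Disomes were then set against monosomes within each diet, which asks whether a gene holds more or less of the stacked-ribosome footprints than the average gene does. On chow 4 of the 8 genes were lower in disomes and 0 were higher: H2-D1, H2-K1, H2-T22 and Cd74. This main test did not use the barcode, and the fit with the barcode as a replicate block is given below. In the main test 44.9% of the 4713 genes tested were called in either direction and 23.3% were lower. Among genes with more counts the share was larger: at a minimum count of 50, 486 of 1436 genes were lower. Of the members, 4 were tested at that setting and 3 were lower. H2-D1 was 3.00-fold lower (log2 -1.58 ± 0.17, adjusted p = 4.28e-10 in edgeR), and H2-K1 was 1.50-fold lower (-0.58 ± 0.13, adjusted p = 0.000465). H2-T22 had a monosome mean of 30.0 ± 5.73 CPM in this fit and no disome count (adjusted p = 1.17e-05 in edgeR). That mean was 6.57-fold above the level that 3 counts over the disome group would give. The exact 95% counting interval of how far H2-T22 was lower, which also covers the error of the 84 monosome counts, starts at 5.20-fold. Having no disome count, H2-T22 passed the count filter through its monosomes alone and could not have been called higher. Its call therefore adds no support to the count of 4 genes. Cd74 was 1.60-fold lower (-0.68 ± 0.19, adjusted p = 0.00339). For each of these 4 genes no disome library reached the lowest monosome library, as was the case for 27.9% of all genes tested. For H2-T22 this follows from the absence of disome counts.

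The other 4 genes did not pass on chow. B2m was at -0.09 ± 0.12 (95% interval -0.34 to 0.16, adjusted p = 0.583 in edgeR) and H2-Eb1 at 0.02 ± 0.32 (-0.63 to 0.67, adjusted p = 0.963). H2-Ab1 was at -0.73 ± 0.31 (adjusted p = 0.0550) and H2-Aa at -0.62 ± 0.34 (adjusted p = 0.134). With the barcode as a replicate block in edgeR, both passed, so that 6 of 8 were lower. H2-Ab1 was at -0.79 with an adjusted p of 0.00374 and H2-Aa at -0.69 with an adjusted p of 0.0493. That fit uses the pairing assumed for the chow libraries, and it called 1191 of 4713 genes lower. H2-Ab1 also passed without robust estimation (adjusted p = 0.0471), in 1 fit of all 11 libraries (0.0187) and without the count filter (0.00158), where H2-Aa passed too (0.0445). Without the AGCTA libraries 4 of 8 were lower, as with them. The median over the 8 genes was -0.65, beside -0.01 over all genes tested.

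On HFHS 6 of the 8 genes were lower in disomes and 0 were higher. Of the 7437 genes tested 25.1% were called in either direction and 13.6% were lower. H2-D1 was 2.30-fold lower (log2 -1.20 ± 0.17, adjusted p = 1.83e-06 in edgeR), H2-K1 1.41-fold lower (-0.50 ± 0.13, adjusted p = 0.00646) and Cd74 1.62-fold lower (-0.69 ± 0.20, adjusted p = 0.0120). Of the class II chains, H2-Ab1 was 2.86-fold lower (-1.51 ± 0.35, adjusted p = 0.00168) and H2-Aa 2.33-fold lower (-1.22 ± 0.36, adjusted p = 0.0127). H2-T22, with 4 disome and 114 monosome counts, had a fitted log2 change of -1.79 ± 0.58 (adjusted p = 0.0238), and its count ratio was 3.5-fold lower with a counting interval of 1.33 to 13.1. DESeq2 did not call H2-T22 (adjusted p = 0.0941).

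B2m was at -0.31 ± 0.13 (adjusted p = 0.0771 in edgeR) and H2-Eb1 at -0.98 ± 0.43 (adjusted p = 0.0946), and the libraries of both genes did not overlap between the footprint classes. With them all 8 genes lay lower in disomes without overlap in the scaling of this fit, beside 31.5% of all genes tested. With library totals B2m overlapped, at 2431 CPM in the CTAGA disomes against 2335 in the GCATA monosomes. The median over the 8 genes was -1.09, beside -0.07 over all genes tested. The count of 6 was lower with either HFHS disome library left out: without CTAGA 2 of 8 were called and without GCATA 3 of 8, when 1 disome library, assumed to vary like the others, stood against 3 monosome libraries. The calls lost were H2-T22 and H2-Aa in both cases, H2-Ab1 and Cd74 without CTAGA, and H2-K1 without GCATA. Their log2 changes stayed negative, at -1.80 and -1.82 for H2-T22, -1.34 and -1.15 for H2-Aa, -1.20 for H2-Ab1 and -0.57 for Cd74 without CTAGA, and -0.46 for H2-K1 without GCATA. H2-D1 was called each time a library was left out. With library totals in place of TMM the median gene moved by 0.12 and the calls over all genes changed from 854 higher and 1010 lower to 1043 higher and 823 lower, while 6 members stayed lower and 0 higher.

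**Figure D4:**
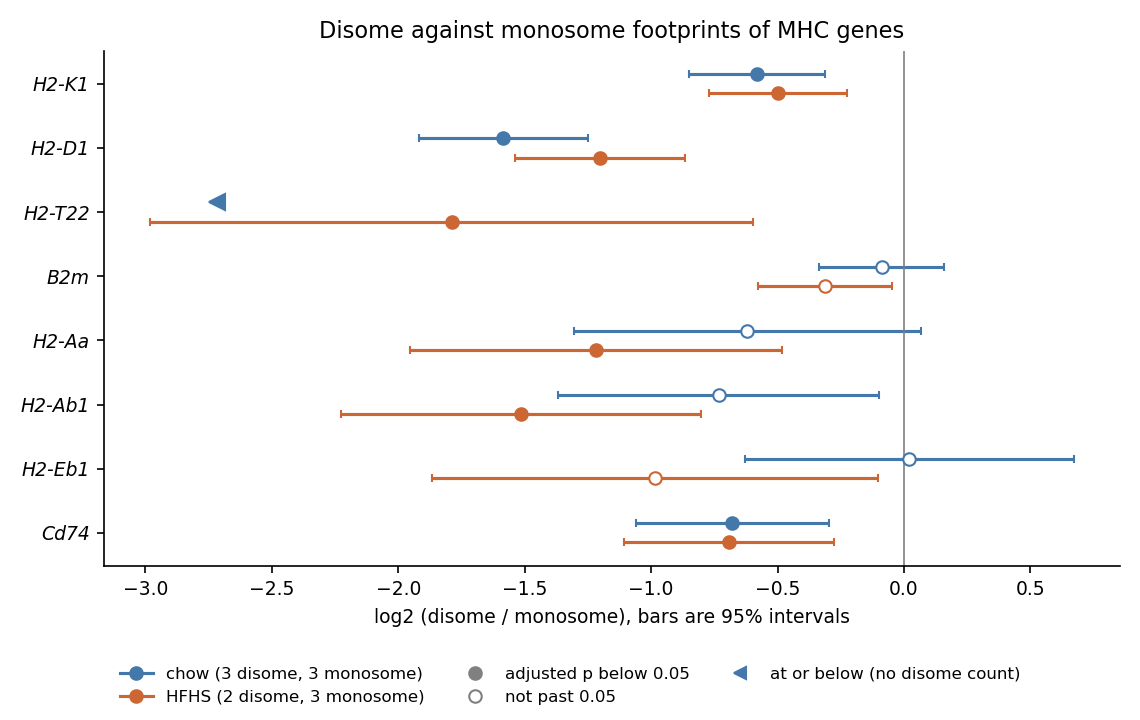
Log2 ratio of disome to monosome footprints for each gene with its 95% interval, in chow (blue) and HFHS (orange); filled circles passed an adjusted p of 0.05, and the triangle marks the bound for H2-T22 on chow, which had no disome count. H2-D1 lies at -1.58 and -1.20, H2-K1 at -0.58 and -0.50, and B2m at -0.09 and -0.31.

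On the scale of all 11 libraries, those of the same barcode gave the same direction in every pair. The barcode is taken to pair the chow libraries but not the HFHS ones, so an HFHS pair here only shares a barcode. With the scaling over 11 libraries, the disome level was below the monosome level for all 8 genes in all 5 barcode pairs, as it was for 26.4% of the 7151 genes with a monosome count in each pair. For some members it was barely so: the highest ratio was 0.987 for H2-Eb1 and 0.955 for B2m. With library totals in place of TMM, the direction turned for both genes in ATCGT and CGTAA. B2m was then at 2571 CPM in disomes against 2490 in monosomes in ATCGT, and at 3021.5 against 2821 in CGTAA. H2-Eb1 was at 44.90 against 44.84 CPM in ATCGT and at 75.2 against 66.3 in CGTAA. For H2-T22 the direction in the chow pairs follows from the absence of disome counts. Ratios of H2-D1 were 0.297 to 0.338 in the 3 chow pairs and 0.434 to 0.464 in the 2 HFHS pairs. Those of H2-K1 were 0.613 to 0.657 on chow and 0.717 to 0.776 on HFHS. H2-Ab1 had 0.518 to 0.587 on chow and 0.267 to 0.363 on HFHS. Those of H2-Aa were 0.532 to 0.865 on chow and 0.397 to 0.474 on HFHS, and those of H2-Eb1 were 0.705 to 0.987 and 0.408 to 0.501. H2-T22 was at 0 in the chow pairs and at 0.273 and 0.297 in the HFHS pairs. The diets thus did not overlap for 6 of 8 genes, higher on HFHS for H2-K1, H2-D1 and H2-T22 and lower for the 3 class II chains, beside 20.2% of the 7151 genes. Of these, H2-T22 rests on 0 disome counts in each chow library and 2 in each HFHS library. The class II chains rest on 6 to 10 disome counts in each HFHS library. For B2m and Cd74 they overlapped. The interaction test, given above, called none of the 8.

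H2-K1 and H2-D1 code for closely related heavy chains, and the disome-to-monosome ratio of H2-D1 was below that of H2-K1 in all 5 barcode pairs. A ratio of raw counts within a library needs no scaling, so H2-K1 counts were divided by H2-D1 counts. This ratio was chosen after the values were seen and restates that difference in raw counts, so it is a description and was not tested. In monosomes the ratio was 3.05 in ATCGT, 3.12 in AGCTA and 2.94 in CGTAA on chow and 3.02 in CTAGA, 3.21 in GATCA and 3.04 in GCATA on HFHS. In disomes it was 5.94 in ATCGT, 6.44 in AGCTA and 6.06 in CGTAA on chow and 5.41 in CTAGA and 4.69 in GCATA on HFHS. All 5 disome libraries were above all 6 monosome libraries.

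The mean was 3.06 ± 0.0931 in monosomes (SD, n = 6) and 5.71 ± 0.678 in disomes (n = 5), 1.85-fold apart as a ratio of geometric means. On chow the ratio was 3.04 ± 0.0955 in monosomes and 6.15 ± 0.265 in disomes, and on HFHS 3.09 ± 0.103 and 5.05 ± 0.503 (n = 2). The diets did not overlap in disomes and overlapped in monosomes. How reads common to class I copies were counted is not given in the sources used here. Fragment length, 30 against 60 nt, moves with the footprint class, and its part in this ratio was not tested. The split of counts between these genes is therefore uncertain in both classes.

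The light chain was set against H2-K1 in the same way. B2m counts divided by H2-K1 counts averaged 1.40 ± 0.121 in monosomes (range 1.26 to 1.54, n = 6) and 1.85 ± 0.327 in disomes (range 1.47 to 2.21, n = 5). The geometric means were 1.31-fold apart and the ranges overlapped; this ratio, too, was chosen after the values were seen and was not tested. On chow it was 1.48 ± 0.0898 in monosomes and 2.08 ± 0.117 in disomes, without overlap. On HFHS it was 1.33 ± 0.104 and 1.50 ± 0.0444 (n = 2), also without overlap. Chow disomes (3 libraries) lay above HFHS disomes (2 libraries), without overlap. How often count ratios of other gene pairs separate in this way was not computed, here or for H2-K1 to H2-D1.

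**Figure D5:**
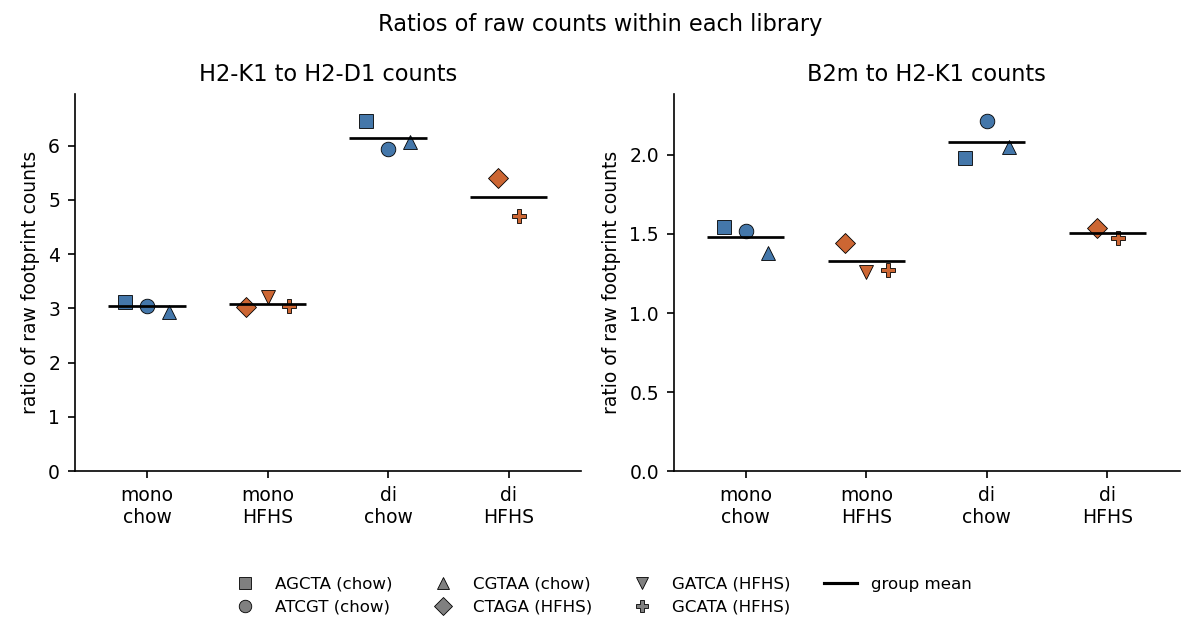
Ratio of raw footprint counts within each library, H2-K1 over H2-D1 and B2m over H2-K1 (linear axes from 0); symbols mark the barcode, blue is chow, orange is HFHS, and bars are group means. H2-K1 over H2-D1 is 2.94 to 3.21 in the 6 monosome libraries and 4.69 to 6.44 in the 5 disome libraries.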

How the data were processed

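The authors deposited 1 table of raw, unnormalized footprint counts (whole numbers), with 22019 genes and 11 libraries. Tools named are cutadapt 3.5 and Bowtie2, per the submitters' processing notes. Not given in the sources used here are the counter, use of the 8 nt molecular identifiers, genome build, annotation, strand setting and handling of reads that match several copies. Column names gave the footprint class, diet and barcode but no replicate number. Replicate 2 of the HFHS disomes was not analysed here.

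The main test was edgeR 4.0.16 (R 4.3.3) with filterByExpr (minimum count 10), TMM, robust quasi-likelihood F-test, two-sided, Benjamini-Hochberg over all genes tested, threshold 0.05. A log2 fold change has an SE equal to its size over the square root of F, with a 95% interval from the t distribution; levels per library come from the scaling over 11 libraries and fold changes from the fit of their comparison. DESeq2 1.42.0, other scalings, filters and left-out libraries were alternatives. Each diet or footprint comparison was fitted on its own libraries, and the interaction on all 11. The fits were also run on simulated counts, drawn without pairing between libraries, and no result above rests on that run. Count ratios were chosen after the values were seen and are described without a test. Exact counting intervals used scipy 1.17.1, and promoters were aligned with Biopython 1.88.

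The named genes are all 8 members. The rule uses no measured value, but the members and lists were chosen with earlier results of these data known. Lists of pathway genes and cell type markers, written by symbol, were not analysed, because 0 of 49997 RefSeq genes carried an Ensembl identifier. Member symbols came with their identifiers; 8 of 8 are in the RefSeq table, and 6 had a promoter used here.

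The labels do not say that samples came from separate animals, so a p-value reflects only how these samples vary, which may be technical. Libraries of a barcode deviated together from their group means on chow (Pearson r of 0.692, 0.861 and 0.683 over 2179 genes), above the 0.1 set for pairing, so the barcode is taken to pair the chow libraries. On HFHS r was 0.0869 for CTAGA, below it, and 0.292 for GCATA, above it. As every pair, and at least 3, had to exceed it, the HFHS libraries are not taken as paired. With 2 HFHS disome libraries, the deviations from their mean mirror each other, so these r values are not independent. Libraries of different barcodes were not correlated for comparison, so r cannot show whether a barcode marks the same animal. In 1 library 3 counts equal 1.86 to 3.77 CPM in monosomes and 10.7 to 20.4 in disomes. Floors and counting intervals cover counting error only. Changes are relative to the average gene.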

Additional observations from a re-analysis of the deposited data

How the results depend on the processing

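In no alternative was a member called for diet or for the difference of diet effects, and in none was a member called higher in disomes. H2-K1, H2-D1, H2-T22 and Cd74 on chow and H2-D1 on HFHS were called lower under every alternative that tested them. For H2-T22 on chow, with no disome count, a call in the other direction was not possible. Values that changed sign were all uncalled. For diet in monosomes, library totals gave -0.020 for H2-T22, -0.042 for B2m and -0.033 for H2-Aa. A minimum count of 50 gave -0.042 for B2m and -0.031 for H2-Aa, and 1 fit of all 11 libraries gave -0.013 for B2m. Without the AGCTA libraries H2-T22 was at -0.0094, H2-Aa at -0.15 and H2-Eb1 at -0.086. For diet in disomes, Cd74 was at 0.022 with DESeq2, 0.043 without a filter and 0.030 in 1 fit; its difference of diet effects was -0.012 without the AGCTA libraries. For disomes on chow, H2-Eb1 was at -0.10 with DESeq2, -0.16 without a filter, -0.056 in 1 fit, -0.048 with the replicate block and -0.0064 without the AGCTA libraries, and B2m was at 0.0073 with library totals. The cause was not tested.

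With 1 library left out at a time, diet in monosomes ranged from -0.091 to 0.19 (H2-T22), -0.033 to 0.073 (B2m), -0.15 to 0.37 (H2-Aa), -0.39 to 0.15 (H2-Ab1), -0.23 to 0.33 (H2-Eb1) and -0.13 to 0.091 (Cd74). Cd74 ranged from -0.23 to 0.24 for diet in disomes and from -0.10 to 0.33 for the difference, and H2-Eb1 from -0.44 to 0.24 for disomes on chow. Members lower in disomes ranged from 3 to 5 on chow and from 2 to 7 on HFHS. The log2 difference of the H2-K1 to H2-D1 ratio between footprint classes, 0.89 over both diets, was 1.02 within chow and 0.71 within HFHS and ranged from 0.84 to 0.96; for B2m to H2-K1, 0.38 over both, it was 0.49 and 0.19 and ranged from 0.32 to 0.46.

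The barcode as a replicate block called 8 members lower on HFHS, adding B2m (-0.27, adjusted p = 0.0198) and H2-Eb1 (-1.16, adjusted p = 0.0170), where 1 of the 2 barcodes exceeded the correlation set for pairing; without a filter 8 were also called. On chow the block and the fit without a filter each called 6, and the fits without robust estimation and of all 11 libraries 5. The block changed no other call of a member. Over all genes, calls for diet in monosomes were 314 of 6754 genes tested. With a minimum count of 50 they were 201 of 2512, a larger share. Without the AGCTA libraries they fell to 207. With 1 library left out they ranged from 142 to 320, the lowest without CGTAA, then 201 without GATCA and 208 without CTAGA. In disomes they fell from 83 to 30 with DESeq2 and 51 without the AGCTA libraries (40 to 53 with any 1 of the 5 left out). The block called 7 genes for the difference, against 0. Calls for disomes fell from 2114 to 898 on chow with a minimum count of 50, which tests fewer genes, and from 1864 to 1146 on HFHS with DESeq2 (980 to 1662 with 1 library left out, 980 without the CTAGA and 1074 without the GCATA disomes). Without a filter the calls on chow were 889 higher and 1532 lower, against 1017 and 1097, and the median gene moved by -0.17. Of 32 member group means in CPM, 5 moved by more than 1 SD with library totals. A block on replicate numbers for diet was not run, because the columns carry none, nor was an alternative window of shared class I sequence, because no protein sequence was used here. Depth limits H2-T22 and the class II chains in disomes most.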
